A study of Mus musculus with 10 samples.

Results

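The 2 SOX2-HA chromatin immunoprecipitation libraries were described from their peak lists, which are 2 of the 5 peak lists and come from 2 of the 10 samples of the series. Both were selected by sample title. The list of replicate 1 held 2676 peaks and that of replicate 2 held 4817, or 7493 in all. The cells were mouse embryonic stem cells in which the SOX2 protein carries an HA tag knocked into its own gene. They were grown in 2i/LIF, a medium with a pair of kinase inhibitors and leukaemia inhibitory factor, and were fixed with 1% formaldehyde for 5 min before sonication. The antibody is listed as Sox2-HA, and input chromatin without an antibody makes up other samples of the series. The labels name neither the parental line nor its sex, and do not say whether the 2 libraries came from separate cultures or clones, so differences between them may be technical. Untagged cells were not analysed here. Read numbers are not part of a peak list, and sequencing depth is therefore unknown.

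SOX2 is a high mobility group box transcription factor that bends DNA and, in pluripotent cells, commonly binds beside the POU factor OCT4 (gene Pou5f1) on a composite element. Such elements lie mostly in distal enhancers, and the pair acts on Pou5f1, Sox2 and Nanog themselves. In 2i/LIF the naive state is held by a network that includes Esrrb, Klf2, Klf4, Tfcp2l1 and Prdm14, with LIF signalling through the receptor subunits encoded by Lifr and Il6st.

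Each peak has a summit, the position of highest signal, and a fold enrichment, the peak caller's ratio of signal to local background at the summit. Peaks of the 2 lists that shared at least 1 bp were merged, which gave 5115 regions, of which 2369 held peaks of both lists. Positions are on mm10.

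Promoter sequence with the summits of both libraries inside shows what SOX2 summits can lie on, so 3 windows are printed, chosen after their values were seen. Sequences are RefSeq promoter windows of GRCm38.p6, from 250 bases before a transcription start to 50 after it, written 5′ to 3′ on the gene's strand. Capitals mark a SOX motif (CATTGT or CTTTGT), an octamer (ATGCAAAT) or the composite of a SOX motif and ATGCAAA at most 3 bases apart, each searched on both strands, so that the composite overlaps the motifs it is made of. Nanog, a homeobox factor of the naive network, is at chr6:122707239-122707538 on the plus strand. Mtf2, an accessory subunit of Polycomb repressive complex 2, is at chr5:108065424-108065723 on the plus strand, and Nrarp, a feedback inhibitor of Notch signalling, is at chr2:25180508-25180807 on the plus strand.
Nanog: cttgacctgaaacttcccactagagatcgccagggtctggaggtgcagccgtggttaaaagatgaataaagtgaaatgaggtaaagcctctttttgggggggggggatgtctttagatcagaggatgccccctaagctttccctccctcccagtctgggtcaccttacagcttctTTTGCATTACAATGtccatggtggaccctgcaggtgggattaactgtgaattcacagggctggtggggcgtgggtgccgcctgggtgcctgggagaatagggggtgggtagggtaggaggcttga
Mtf2: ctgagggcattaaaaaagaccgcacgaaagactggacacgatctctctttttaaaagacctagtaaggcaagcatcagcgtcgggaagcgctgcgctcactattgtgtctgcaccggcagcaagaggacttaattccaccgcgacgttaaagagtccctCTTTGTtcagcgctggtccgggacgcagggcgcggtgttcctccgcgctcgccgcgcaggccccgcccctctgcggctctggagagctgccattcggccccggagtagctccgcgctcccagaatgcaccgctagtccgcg
Nrarp: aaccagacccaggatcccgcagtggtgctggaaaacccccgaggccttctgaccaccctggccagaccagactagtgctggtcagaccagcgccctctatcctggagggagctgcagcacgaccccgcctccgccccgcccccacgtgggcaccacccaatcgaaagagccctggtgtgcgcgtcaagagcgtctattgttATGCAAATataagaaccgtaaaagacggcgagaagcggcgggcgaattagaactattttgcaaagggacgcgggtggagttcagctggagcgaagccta

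At Nanog the composite occupied positions -75 to -62 from the start, with its centre 10 bp from the summit of replicate 1 and 9 bp from that of replicate 2. The Nanog peak itself had a fold enrichment of 6.76 in replicate 1, below that list's median of 8.31. In replicate 2 it had 10.4, above the median of 8.31 there. At Nrarp the octamer lay 2 bp from both summits, under peaks of 16.8-fold and 26.4-fold. The SOX motif of the Mtf2 window lay 34 bp and 28 bp from the summits, and the peaks reached 12.7-fold and 15.7-fold. In all, 30 windows of 28 genes held a summit of each list. A SOX motif was in 22 of those 30 (73.3%), against 28.3% of all 32619 windows of the same length. The octamer was in 6 of the 30, against 1.75% of all windows. Overlapping windows of the same region were counted separately, such as those of H2bc8 and H2ac8, both with an octamer. Dnajb4 and Fubp1, both with a SOX motif, were another such pair. The composite was in 2, both of them overlapping windows of Nanog, and in 7 of all windows. Only exact letters were counted. In the Nrarp window the bases tattgt, 1 base before the octamer, differ from CATTGT in 1 letter and were not marked. These counts describe letters in the windows and were not tested. Sequence under the distal peaks was not used here.

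A strong SOX2 peak stood beside the cluster of Mir302 genes and Mir367 on chromosome 3, which encodes microRNAs abundant in early embryonic cells. It lay just upstream of Mir302b and had a fold enrichment of 20.4 in replicate 1 (chr3:127544510-127545195) and of 37.2 in replicate 2 (chr3:127544401-127545201). The summits were 428 bp and 423 bp upstream of the first hairpin. Some mature products of this cluster share their seed, bases 2 to 8 (capitals), with products of the Mir290 cluster on chromosome 7, which embryonic stem cells are known to express strongly.
mmu-miR-302b-3p: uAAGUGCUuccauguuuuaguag
mmu-miR-302d-3p: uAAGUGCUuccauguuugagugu
mmu-miR-294-3p: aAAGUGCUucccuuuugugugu
mmu-miR-295-3p: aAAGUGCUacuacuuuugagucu

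These 4 hold the seed AAGUGCU, which 5 of 1679 mature mouse microRNAs in the RefSeq table carry. Of Mir302a only mmu-miR-302a-5p was listed there, so the count covers listed products and may miss others. At the Mir290 cluster the 2 lists differed. Replicate 1 had a 1037 bp wide peak of 4.43-fold whose summit lay 1.25 kb downstream of the last hairpin, where replicate 2 had none. Replicate 2 had peaks 4.88 kb and 6.33 kb upstream of the first hairpin, of 10.3-fold and 6.83-fold, where replicate 1 had none. Both lists had peaks farther upstream, at 17.3 kb (9.89-fold and 10.3-fold) and at 25.3 kb (4.49-fold and 17.8-fold). Of 1005 microRNA hairpins, 6 lay within 1 kb of a region called in both lists, and 5 of those were in the cluster on chromosome 3.

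Peak density differed between chromosomes, and the densest and the sparsest chromosome were the same in both libraries. Chromosome 11 was the densest, with 1.53 peaks per Mb in replicate 1 and 2.71 in replicate 2. By the mean of the lists, chromosome 15 (1.34 and 2.35 peaks per Mb) and chromosome 19 (1.37 and 2.27) followed. The X chromosome was the sparsest, with 0.305 and 0.674 peaks per Mb. Next above it by the mean of the lists came chromosome 12 (0.742 and 1.47) and chromosome 7 (0.833 and 1.45). Over all 20 chromosomes the density was 1.02 peaks per Mb in replicate 1 and 1.83 in replicate 2.

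The X chromosome held 52 and 115 peaks, 1.94% and 2.39% of each list, on 6.49% of the length. Every autosome lay above it in both lists, the lowest at 0.742 and 1.45 peaks per Mb. Gene number did not give the same order. Chromosome 7 had the most protein-coding genes per Mb, 14.0, yet ranked 18 of 20 by the mean of the lists, while chromosome 11, the densest in peaks, had 13.2. Across chromosomes the Pearson correlation of peak density with gene density was 0.375 in replicate 1 and 0.387 in replicate 2 (n = 20 chromosomes, whose peaks share a library). Between the 2 lists it was 0.957, and 0.924 over the 19 autosomes.

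Replicate 2 had more peaks on every chromosome, 1.80 times as many in all. The ratio was lowest on chromosome 13, at 1.503, and highest on the X chromosome, at 2.21. On chromosome 13, 77.0% of replicate 1 peaks overlapped a replicate 2 peak, against 88.8% over the whole list and 94.2% on the X chromosome. Chromosome 13 also carries the largest histone gene cluster, whose part in these values was not tested.

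**Figure D1:**
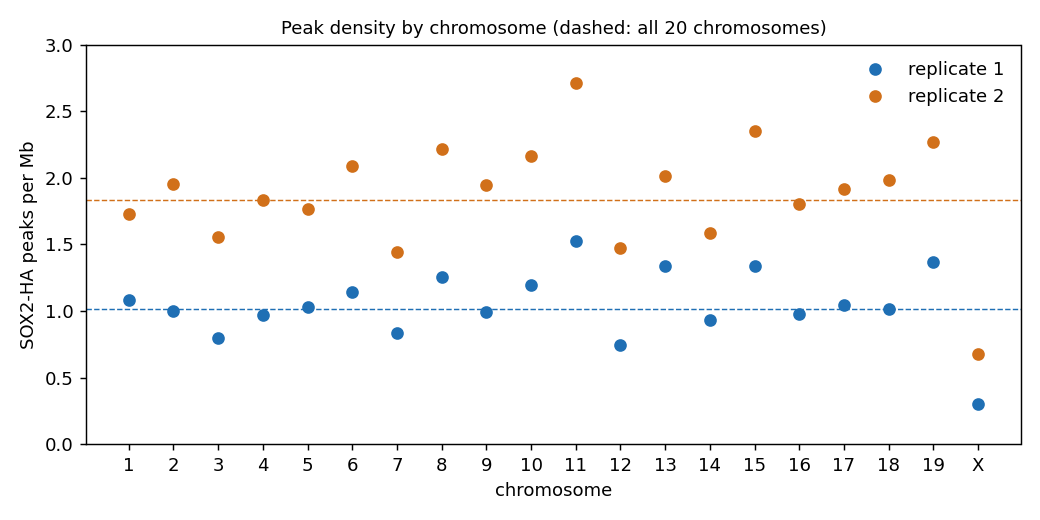
SOX2-HA peaks per Mb (vertical axis) on each chromosome (horizontal axis), 1 point per library, with the density over all chromosomes as dashed lines. Chromosome 11 is highest in both libraries (1.53 and 2.71 peaks per Mb) and the X chromosome lowest (0.305 and 0.674).

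Neighbouring summits were usually far apart. The median distance was 438 kb in replicate 1 and 220 kb in replicate 2 (mean of the lists 329 ± 154 kb, SD, n = 2). The 2676 strongest peaks of replicate 2 by fold enrichment had a median spacing of 468 kb. Fewer summits on the same chromosomes must lie farther apart, so the part of peak number in the difference was not tested. The mean distance, 941 kb and 526 kb, exceeded the median in each list, with long gaps pulling it up. Gaps over 1 Mb made up 30.2% in replicate 1 and 15.1% in replicate 2. The longest gap lay on the X chromosome in each list, at 24.6 Mb and 15.4 Mb.

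At the short end, 51 of 2656 gaps in replicate 1 (1.92%, Wilson 95% interval 1.46 to 2.52%) and 66 of 4797 in replicate 2 (1.38%, 1.08 to 1.75%) were at most 1 kb. Such intervals cover counting error only. The closest summits were 308 bp and 325 bp apart. What these close pairs lay on differed between the libraries. In replicate 1, 20 of the 51 pairs had a summit within 1 kb of an snRNA, snoRNA, tRNA, clustered histone or ribosomal protein gene, 16 of them at histone genes. In replicate 2 this held for 3 of 66 pairs, 1 of them at a histone gene. The part of these genes in the close spacing of replicate 1 was not tested.

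**Figure D2:**
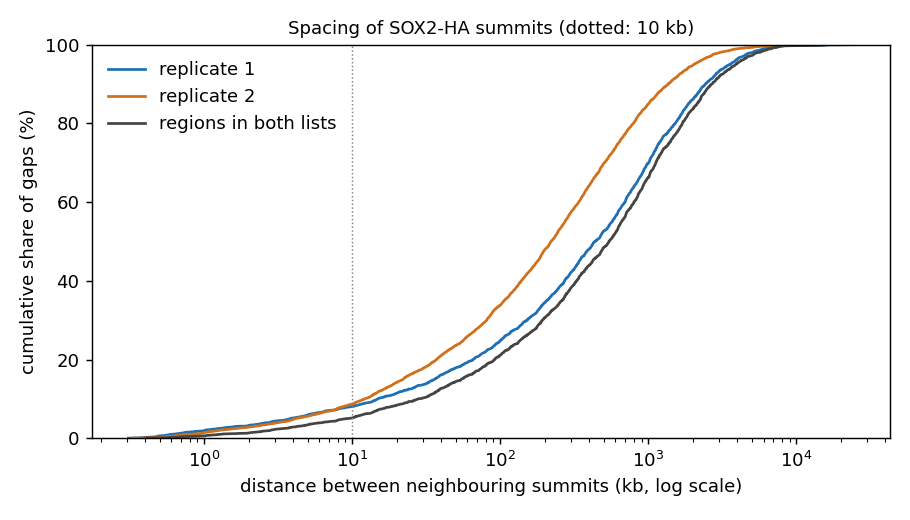
Cumulative share of gaps (vertical axis, %) against the distance between neighbouring summits (horizontal axis, kb, log scale) for each library and for regions called in both. At 10 kb the curves of the 2 libraries are close, at 8.02% in replicate 1 and 8.65% in replicate 2, with the regions in both lists lower at 5.11%. The 2 libraries part above it, with medians of 438 kb and 220 kb.

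Regions called in both lists were joined into clusters where summits lay at most 10 kb apart. Of the 2369 regions, 226 (9.54%, Wilson 95% interval 8.42 to 10.8%) fell into 106 clusters. Most were pairs, 97 of them, and 7 held 3 regions. The 2 largest clusters both lay at noncoding RNA or histone genes. At the histone locus chr13:23739273-23761995, around H3c3, H2bc3, H3c2 and the linker histone H1f2, 6 regions stood within 22.0 kb, with fold enrichments from 6.76 to 18.1 in replicate 1 and from 5.62 to 8.18 in replicate 2. Between Mreg and Pecr, at chr1:72226260-72245048, 5 regions spanned 18.0 kb, 3 of them at snRNA genes, and the fold enrichments were 6.97 to 33.9 and 6.22 to 28.0. A cluster of 3 inside Tex14, a germ cell gene whose body holds the U1 snRNA gene Rnu1a1, reached 26.8-fold and 25.9-fold.

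The other clusters of 3 included loci of stem cell and signalling genes. Inside Esrrb, an orphan nuclear receptor of the naive network, 3 regions stood within 5.80 kb at chr12:86498790-86505020. Their fold enrichments were 16.6, 38.1 and 5.44 in replicate 1 and 17.0, 35.6 and 9.51 in replicate 2, so the middle region was the strongest in both. At Etv1, an ETS factor downstream of ERK signalling, the 3 regions spanned 5.96 kb and ranged from 7.86- to 13.9-fold in replicate 1 and from 10.1- to 17.5-fold in replicate 2. Inside Arid5b, which encodes an AT-rich interaction domain protein, they spanned 9.81 kb and reached 16.6-fold and 18.0-fold. Inside Lgr4, a receptor for R-spondins that strengthens WNT signalling, they spanned 6.84 kb and reached 9.24-fold and 9.17-fold.

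A cluster downstream of Sox2 began 104 kb from the gene, in the interval known to hold its distal control region. Its 3 regions, within chr3:34756493-34761658, were low, at 5.47 to 6.83-fold in replicate 1 and 6.73 to 9.51-fold in replicate 2. The last named clusters were histone loci, 3 regions at H2bc6 (7.45 to 11.7-fold and 6.65 to 9.09-fold) and 2 regions at H2ac15 and H2bc15 (7.80 and 11.7-fold, against 5.77 and 3.42-fold). Between clustered and single regions the median fold enrichment differed in opposite directions in the 2 lists. The clustered median fold enrichment was 8.90 in replicate 1 and 10.1 in replicate 2, against 8.66 and 11.2 for the 2143 single regions. Of the 226 clustered regions, 33 had an snRNA, snoRNA, tRNA, clustered histone or ribosomal protein gene within 1 kb of the summit, out of 59 among all 2369.

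Regions called in both lists were also counted within gene bodies. Tex14 held 7, Arid5b 5, Ebf1 5 and Glis3 5, the last 2 encoding an early B cell factor and a zinc finger protein. Epha4, an ephrin receptor, held 4, as did 5 other genes. The regions of Tex14 had fold enrichments from 5.77 to 51.6 in replicate 1 and from 10.7 to 25.9 in replicate 2. Those of Arid5b ran from 5.69 to 21.3 and from 5.99 to 18.0, and those of Ebf1 from 5.07 to 14.2 and from 7.95 to 22.5. The gene bodies differ in length, and per 100 kb Tex14 held 4.64 regions, Epha4 2.70, Arid5b 2.68, Ebf1 1.28 and Glis3 1.19. A region inside the body was found for 902 protein-coding genes, and 29 had 3 or more.

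Most SOX2 peaks were narrow. The widths ran from 212 to 1641 bp in replicate 1 and from 219 to 1279 bp in replicate 2, with medians of 304 and 331 bp. The shortest width was shared by 120 peaks in replicate 1 and by 178 in replicate 2, a floor in each list. Widths rose with fold enrichment in both. From the lowest to the highest quartile of fold enrichment, the median width was 246, 268, 311 and 421 bp in replicate 1 and 258, 287, 345 and 453 bp in replicate 2. The Spearman correlation of width and fold across peaks was 0.664 and 0.701 (n = 2676 and 4817 peaks, which are not replicates).

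Peaks found in both libraries were wider than the others. In replicate 1 the median was 310 bp for peaks that overlapped a replicate 2 peak and 253 bp for the rest. In replicate 2 it was 398 bp and 283 bp. The share that overlapped rose with fold quartile, through 75.3, 86.5, 93.7 and 99.7% in replicate 1 and 21.9, 28.3, 56.0 and 90.6% in replicate 2. Within the 2360 pairs in which 1 peak of each list overlapped only the other, replicate 2 had the wider peak in 1965 (83.3%), by a median of 74 bp. A single replicate 2 peak spanned 2 replicate 1 peaks in 8 regions, and the reverse held in 1, at Sirt4, which encodes a mitochondrial sirtuin.

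**Figure D3:**
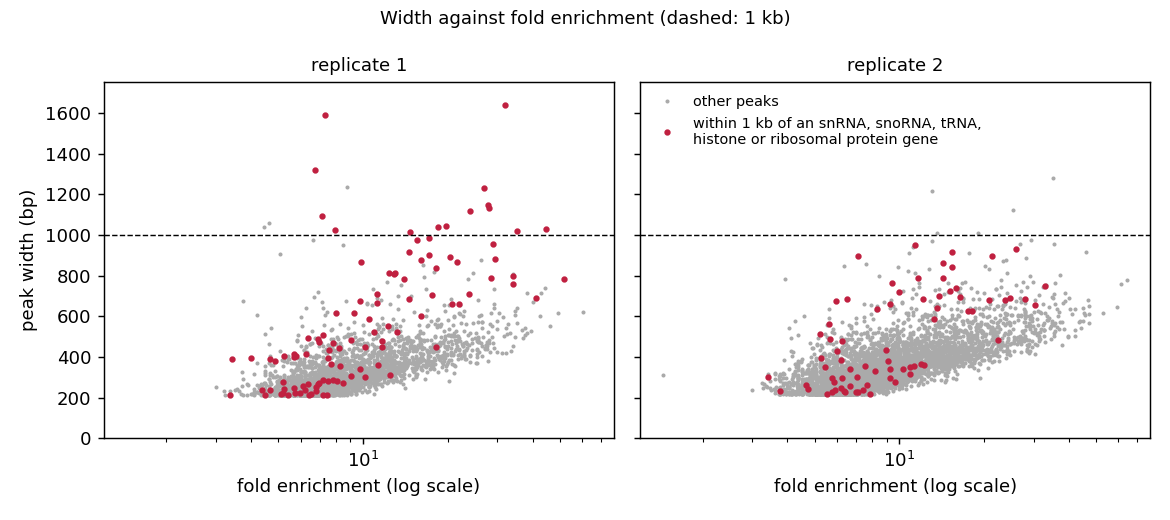
Peak width (vertical axis, bp) against fold enrichment (horizontal axis, log scale) for each library, 1 point per peak, with the 1 kb limit dashed. Red points, peaks within 1 kb of an snRNA, snoRNA, tRNA, clustered histone or ribosomal protein gene, make up 14 of the 17 peaks over 1 kb in replicate 1 and 0 of the 5 in replicate 2.

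Peaks over 1 kb wide were few, and the 2 libraries shared none of them at that width. Replicate 1 had 17 (0.635% of its list) and replicate 2 had 5 (0.104%). The narrowest above the limit were 1016 and 1009 bp, and the widest below it 984 and 974 bp. In replicate 1, 10 of the 17 lay within 1 kb of an snRNA gene, 3 of a clustered histone gene and 1 of an snoRNA gene. In replicate 2, none of the 5 lay near any of these.

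The widest peak of replicate 1, 1641 bp and 31.8-fold at chr5:115489253-115490893, covered the annotated snRNA genes Gm24265 and Gm24407 beside Sirt4. Replicate 2 had 2 peaks there, of 626 and 675 bp. Next came H1f1 (1587 bp, 7.33-fold) and H1f2 (1321 bp, 6.76-fold), a pair of linker histone genes that package DNA between nucleosomes. H1f1 had no replicate 2 peak, and at H1f2 the replicate 2 peak was 564 bp wide. Mfsd12, which encodes a lysosomal transporter, had a 1235 bp peak of 8.76-fold and a replicate 2 peak of 939 bp. The 2 wide peaks in Tex14, over Gm22068 and the U1 gene Rnu1a1, measured 1231 bp (26.8-fold) and 1117 bp (23.9-fold), and their replicate 2 peaks measured 929 bp and 916 bp.

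The rest of the 10 widest of replicate 1 were at the snRNA gene Gm22513 (1148 bp, 27.8-fold), at the noncoding gene D230017M19Rik (1131 bp, 27.9-fold, over the snRNA gene Gm25939), at Lrrc75a (1093 bp, 7.13-fold) and at the ubiquitin ligase gene Trim41 (1060 bp, 4.64-fold). The last 2 had no replicate 2 peak. In all, 12 of the 17 overlapped a replicate 2 peak, whose width was 564 to 952 bp. The 5 that did not were H1f1, Lrrc75a, Trim41, the peak near the Mir290 cluster and the one at H3c10, and their fold enrichments were all under 8.

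The 5 peaks over 1 kb of replicate 2 lay at other loci. The widest, 1279 bp and 35.1-fold at chr2:52071294-52072572, had its summit 565 bp before Rif1, which encodes a replication timing factor. Replicate 1 had 2 peaks within it, of 315 and 516 bp and of 10.9- and 38.1-fold. In the noncoding gene A930001A20Rik a 1218 bp peak of 13.1-fold spanned replicate 1 peaks of 662 and 229 bp. In Jmjd1c, a jumonji domain gene of the histone demethylase family, a 1121 bp peak of 25.3-fold spanned peaks of 406 and 413 bp. Those at the noncoding genes 4932412D23Rik (1010 bp) and Gm42292 (1009 bp) matched single replicate 1 peaks of 952 and 734 bp. Beneath them, the rest of the 10 widest were at Prickle2 (974 bp), Gm40300 (972 bp), Fyb (956 bp), Fam189a1 (955 bp) and D230017M19Rik (952 bp). The last is the only locus on both lists of the 10 widest.

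Peaks near snRNA, snoRNA, tRNA, clustered histone and ribosomal protein genes numbered 106 in replicate 1 (3.96% of the list) and 73 in replicate 2 (1.52%). Their share overlapping the other list went opposite ways in the 2 lists. In replicate 1 it was 56.6%, against 90.2% for other peaks, and in replicate 2 it was 82.2%, against 48.7%. Both lists had 60 such peaks that overlapped the other list. They were wider than the rest in each list, with median widths of 480.5 against 302 bp and of 429 against 330 bp.

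Where both libraries called a peak, they placed the summit at nearly the same base. Over the 2360 pairs the median distance between summits was 22 bp (exact 95% interval of the median 21 to 24 bp). The signed median, replicate 2 minus replicate 1, was 1 bp. Of the pairs, 25.7% were within 10 bp, 54.5% within 25 bp, 80.3% within 50 bp and 96.0% within 100 bp. The peak borders moved more, by a median of 43 bp at the start and 44 bp at the end.

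Strong peaks were placed more closely. From the lowest to the highest quartile of fold enrichment, averaged over the 2 lists as a percentile, the median shift was 32, 23, 20 and 16 bp. From the narrowest to the widest quartile of width the median shift was 26.5, 23, 19 and 20.5 bp. For the 57 pairs near snRNA, snoRNA, tRNA, clustered histone or ribosomal protein genes the median was 42 bp, against 22 bp for the other 2303, and the pairs near those genes were also wider. Of the 15 genes named throughout, 14 had a region called in both lists. The summits of the strongest region, replicate 2 minus replicate 1, shifted by 1 bp at Nanog, 3 bp at Otx2, -6 bp at Tcf7l1, -7 bp at Pou5f1, -12 bp at Tfcp2l1, 13 bp at Klf5, and by -14 bp at Sox2 and 14 bp at Lifr. Larger shifts were found at Jarid2 (-26 bp), Esrrb (29 bp), Zfp42 (43 bp), Prdm14 (-55 bp), Klf4 (68 bp) and Klf2 (-71 bp).

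The largest shift, 347 bp, was at chr17:79342679-79343348 in Cdc42ep3, which encodes an effector of the GTPase CDC42. Its peaks were 670 and 708 bp wide, of 7.14- and 14.4-fold. In Ptprd, a receptor tyrosine phosphatase, summits 329 bp apart lay in peaks of 570 and 640 bp. A distal peak 90.3 kb from Tbx3 shifted by -329 bp, where a 233 bp peak of 3.61-fold in replicate 1 met a 689 bp peak of 11.1-fold in replicate 2. Near the noncoding gene Neat1 the shift was -291 bp, between peaks of 340 and 468 bp.

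**Figure D4:**
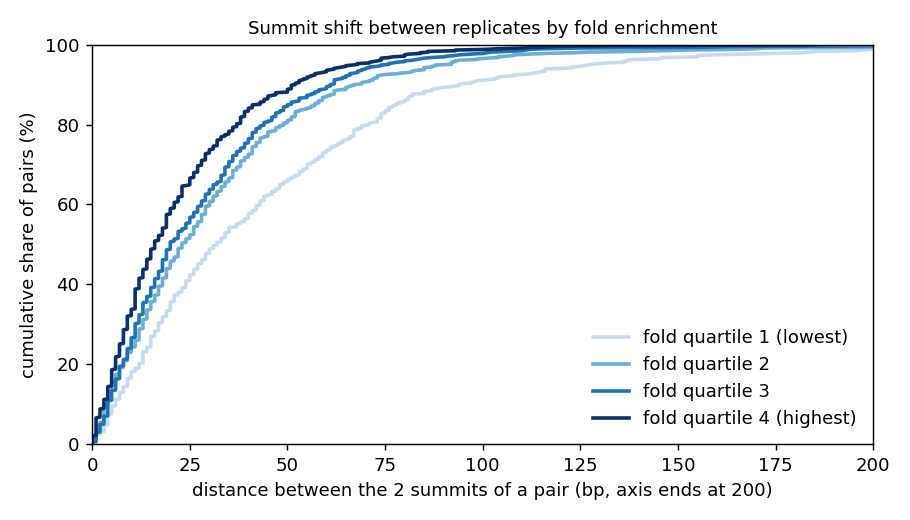
Cumulative share of the 2360 pairs (vertical axis, %) against the distance between their summits (horizontal axis, bp), by quartile of fold enrichment. The median falls from 32 bp in the lowest quartile to 16 bp in the highest.

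SOX2 summits lay mostly away from gene ends. Within 1 kb of either end of a protein-coding gene lay 201 summits of replicate 1 (7.51%, Wilson 95% interval 6.57 to 8.57%) and 246 of replicate 2 (5.11%, 4.52 to 5.77%). Inside the body of a protein-coding gene lay 45.4% (43.5 to 47.3%) and 45.8% (44.4 to 47.2%), while such bodies cover 39.1% of the length. Another 12.97% and 13.4% were more than 100 kb from any. The 2 lists thus differed at gene ends and had close shares inside genes.

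Transcription starts were known for 17274 of the 21120 protein-coding genes on 19 chromosomes. Starts on chromosome 18 were not used here. The median distance of a summit to the nearest of these starts was 44.5 kb in replicate 1 and 46.6 kb in replicate 2. Within 1 kb of a start lay 145 of 2584 summits (5.61%) and 160 of 4637 (3.45%). Peaks without a partner in the other list differed most. Of replicate 1 peaks without a replicate 2 peak, 56 of 288 (19.4%, 15.3 to 24.4%) were within 1 kb of a start. Of replicate 2 peaks without a replicate 1 peak, 73 of 2348 were (3.11%, 2.48 to 3.89%), close to the 3.80% of regions called in both. With summits near snRNA, snoRNA, tRNA, clustered histone and ribosomal protein genes left out, these shares were 10.7%, 3.08% and 2.87%. Over the whole lists, the share within 1 kb of a start was then 3.71% in replicate 1 and 2.98% in replicate 2, closer than before.

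Most genes of the pluripotency lists had a SOX2 region nearby. Of all 21631 protein-coding genes, 3061 (14.2%) had a region called in both lists within 50 kb of the body. Of the core pluripotency list 11 of 15 did, and of the naive list 15 of 18. The members were chosen with results on these loci known, so the counts describe the lists and were not tested. The median number of regions per gene was 1 for the core list and 1.5 for the naive list, against 0 over all protein-coding genes.

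Several regions at the core genes were strong. At Sox2 the region at chr3:34653762-34654340, 4.07 kb downstream of the start, had 33.3-fold enrichment in replicate 1 and 35.3-fold in replicate 2. At Pou5f1, 1.97 kb upstream of the start in the interval of its distal enhancer, the values were 29.97 and 47.0, and a weaker region, with its summit 42.7 kb from that one, had 5.96 and 7.07. Jarid2, a Polycomb repressive complex 2 subunit, had 4 regions, the most of the core list, of which the strongest, 25.1 kb upstream of the start, reached 18.4 and 28.0. At Otx2, a homeobox factor of the formative state, a region inside the gene, 0.372 kb upstream of an internal annotated start, had 6.17 and 7.29. At Fgf4, a growth factor whose enhancer lies at the end of the gene, the region 3.00 kb downstream of the start had 14.1 and 13.9. Lin28a and Tdgf1 had no peak of either list within 50 kb.

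In the naive list, Klf5, a Krüppel-like factor, had 3 regions, the strongest with 10.4 and 12.3-fold enrichment. Esrrb also had 3, described above. Klf2 had 2, the stronger 12.8 kb from the gene with 23.4 and 25.6-fold. At Klf4 the region lay 49.5 kb away, just inside the 50 kb limit, with 16.2 and 22.3-fold. Tfcp2l1 had a region 2.32 kb upstream of the start with 21.9 and 21.2-fold. Prdm14, a PR domain repressor, had 2 regions, the stronger 28.3 kb away with 18.5 and 31.1-fold. Nr5a2 had no region in both lists but 2 replicate 2 peaks, and Stat3 had no peak.

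Zfp42, which encodes the zinc finger protein REX1, was a locus where the lists parted. Replicate 1 had 8 peaks within 50 kb and replicate 2 had 2. Both called the region 13.8 kb upstream of the start, at 16.2 and 12.2-fold. The other 7 peaks of replicate 1 stood in a row from 1.18 to 7.38 kb past the gene's downstream end, with 3.74 to 6.29-fold enrichment and widths of 272 to 675 bp. The other replicate 2 peak lay farther out, at 11.2 kb and 5.07-fold. Dppa4, a chromatin protein gene of the core pluripotency list, had no region called in both libraries and 2 replicate 2 peaks, the nearer of 10.5-fold at 9.45 kb.

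**Figure D5:**
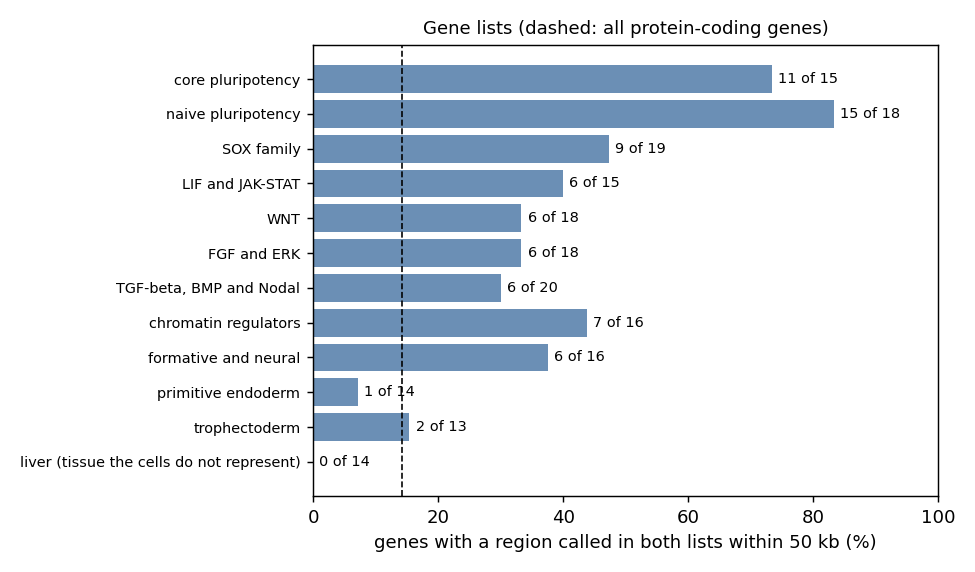
Share of each gene list with a SOX2 region called in both libraries within 50 kb (horizontal axis, %), with the count beside each bar and the share of all protein-coding genes (14.2%) dashed. The naive (15 of 18) and core (11 of 15) pluripotency lists are longest, and the liver list is at 0 of 14.

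Genes of signalling pathways had regions in smaller shares. In the LIF and JAK-STAT list 6 of 15 did: Lifr had 3, the strongest 8.55 kb from the gene at 32.4 and 29.9-fold, and Il6st, the shared receptor subunit gp130, had 1 of 32.1 and 38.0-fold. Socs3, a feedback inhibitor of LIF signalling, had 1 of 5.87 and 20.1-fold. In the WNT list 6 of 18 did. Tcf7l1, the repressor that acts on pluripotency genes, had the highest values there, 25.9 and 44.0-fold at 1.49 kb downstream of its start. Porcn, which acylates WNT ligands, had 12.0 and 22.1-fold, and Dkk1, a secreted WNT antagonist, 8.29 and 20.3-fold.

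In the FGF and ERK list 6 of 18 had a region. Etv5, an ETS factor induced by ERK, had 2 regions 1.23 kb apart inside the gene, of 13.8 and 13.8-fold and of 13.5 and 17.5-fold. Spry2, a feedback inhibitor, had 2, of 10.0 and 10.3-fold and of 5.80 and 14.9-fold. In the TGF-beta, BMP and Nodal list 6 of 20 did. The Nodal antagonists Lefty1 and Lefty2 are neighbours and shared the same 3 regions, the strongest of 13.2 and 12.8-fold. Id3, a BMP target, had 1 of 20.5 and 23.5-fold.

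Among chromatin regulators 7 of 16 had a region. Besides Jarid2, the Polycomb repressive complex 2 genes Mtf2, Suz12 and Eed were among them. Mtf2 had a second, intragenic region of 20.9 and 42.0-fold, above that of the promoter window printed earlier, Suz12 had 14.0 and 16.9-fold, and Eed had 6.17 and 12.2-fold. Tet2, a 5-methylcytosine dioxygenase, had 2 intragenic regions, the stronger of 22.1 and 25.8-fold. In the SOX family list 9 of 19 had a region, with Sox21 (25.6 and 33.2-fold) and Sox13 (27.6 and 28.8-fold) the strongest besides Sox2. In the formative and neural list 6 of 16 did, and the highest value was at Foxd3, a forkhead factor, in replicate 1 (24.6 and 23.0-fold, 20.1 kb upstream of its start) and at the zinc finger gene Zfp521 in replicate 2 (20.5 and 30.9-fold).

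Lists for other lineages were near or below the 14.2% of all genes by regions in both lists. In the primitive endoderm list 1 of 14 had a region, Hnf4a, with 7.25 and 22.1-fold. In the trophectoderm list 2 of 13 did, Tfap2c and Ets2, the first with 2 regions of which the stronger had 9.24 and 11.6-fold. In the liver list, a tissue these cells do not represent, 0 of 14 had a region in both lists. By peaks of replicate 2 alone, 24.9% of all protein-coding genes had a peak within 50 kb, against 15.5% by replicate 1 alone. With replicate 2 alone the counts were 5 of 14 for primitive endoderm, 4 of 13 for trophectoderm, 4 of 14 for liver, 12 of 18 for WNT, 10 of 20 for TGF-beta, BMP and Nodal, and 11 of 16 for chromatin regulators. ChIP peaks do not measure transcript levels, so the labelled cell type could not be checked. Counts over these lists are no such check, since the lists were chosen with earlier results of these data known.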

How the data were processed

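ChIP-seq peak lists of 2 SOX2-HA libraries of mouse embryonic stem cells were analysed; the SOX15 lists were not used here. The submitters' processing notes name Bowtie2, MACS2, deepTools and mm10, without versions; the control, the peak threshold and the handling of replicates are not given in the sources used here. Each deposited list was made by the authors for 1 library and gives each peak's borders and summit offset (other values), a score, a fold enrichment, that is a ratio to local background, and −log10 p and −log10 q values. The deposited score equals 10 times the −log10 q, rounded down. All are the authors' own values, and folds are used only to describe and rank peaks within a list. Summits were set as start plus offset, written 1-based. Peaks sharing at least 1 bp were merged. Gene bodies, starts and sequences come from RefSeq tables of GRCm38.p6, and chromosome length was taken as the largest gene or peak coordinate. The gene list distance was 50 kb, the cluster joining distance 10 kb. Shares carry Wilson 95% intervals.

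No test was made, since with 2 libraries of 1 group there is no comparison between groups. Named genes were those nearest the 10 largest clusters and the 10 widest peaks of each list, the 5 with most regions inside, the 5 largest shifts (1 of which is not reported here), the 3 highest and 3 lowest chromosomes, 15 fixed genes, and the member of each list with most regions; further list members are named as examples chosen after their values were seen. Members, 12 gene lists and rules were chosen with earlier results of these data known. Functions were tested on simulated lists. Intervals used scipy 1.17.1, tables pandas 2.3.3 with numpy 2.4.6, and plots matplotlib 3.10.9, all in Python 3.11.15.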

Additional observations from a re-analysis of the deposited data

How the results depend on the processing

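No paired analysis was possible because the results come from no test. The alternatives were a −log10 q of at least 5, each library alone, and other limits for each measure. The summit shift stayed at 22 bp under all 4 alternatives, and the list genes with a region numbered 71 of 186 (38.2%, against 14.2% of all genes). They numbered 53 within 10 kb (28.5% against 6.72%), 82 within 100 kb (44.1% against 22.3%), 72 with replicate 1 alone (38.7% against 15.5%) and 104 with replicate 2 alone (55.9% against 24.9%). Single lists moved by over 1.5 times mainly with replicate 2 alone, as given above; within 10 kb chromatin regulators had 4 and trophectoderm 1, and within 100 kb primitive endoderm had 2 and liver 1. Median spacing was 329 kb as a mean of the lists and 545 kb over regions in both lists, which are fewer. The share of regions within 10 kb of another, 9.54%, was 6.46% at 5 kb, 16.7% at 25 kb, 13.6 to 16.05% within a single list, and 8.18% away from snRNA, snoRNA and histone genes (added after seeing the data). Median width was 317.5 bp and 354 bp among peaks overlapping the other list. Peaks over 1 kb averaged 11 per list, 17 and 5 in single lists, 50.5 over 750 bp, 1 over 1.5 kb and 4.5 away from those genes. The share of summits near a gene end, 6.31%, was 3.88% at 500 bp, 20.1% at 5 kb and 4.53% within 1 kb of a start (added after seeing the data). Summits inside genes, 45.6%, were 45.1% for regions in both lists and 46.1% away from those genes (added after seeing the data). The other alternatives moved peaks per Mb, spacing, width and the shares near or inside genes by less than the SD between the libraries. Each library alone could not fail this rule, since either of 2 values lies within their SD of the mean. The share of regions within 10 kb was judged by its Wilson interval, and the summit shift by the interval of its median. Those intervals cover counting error only, not the spread between libraries. A −log10 q of at least 5 gave 9.38% for that share. It left the mean count of peaks over 1 kb at 11, where a change of 1.5 times was the limit. The count over all lists moved by less than 1.5 times under each alternative. Replicates 1 and 2 differed in median peaks per Mb by chromosome (1.02 and 1.93) and in median spacing (438 and 220 kb). With the depth unknown, a peak called in 1 list does not show that binding was absent in the other.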
